A study of Mus musculus with 32 samples.

Results

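The genes described here carry lipid into and out of the liver: 9 genes of lipoprotein assembly, lipolysis and uptake, namely Mttp, Tm6sf2, Angptl4, Angptl8, Lipc, Lcat, Pltp, Vldlr and Cd36. They were taken by gene symbol from 41585 gene rows in each of 2 raw count tables, 1 for female and 1 for male livers, and all 9 were listed in both. In either sex 8 of the 9 had enough reads to be tested, and Angptl4 did not.

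The study compared wildtype (WT) C57BL/6 mice (C57Bl/6J in the study's methods) with Cyp2b-null mice, in which Cyp2b9, Cyp2b10 and Cyp2b13, cytochrome P450 genes expressed mainly in liver, were deleted with CRISPR/Cas9 on the same background. Mice of both sexes were fed normal chow (ND) or CDAHFD, an L-amino acid-defined diet without choline that is high in fat (62%) and low in methionine (0.1%) and is used to produce steatohepatitis, for 8 weeks from 10 weeks of age. Genotype, diet and sex gave 8 groups with 4 liver RNA-seq libraries each, 32 in all. WT mice were bought from a supplier, so the genotypes are not stated to be littermates, the deletion is carried in every cell of the animal, and the labels do not say whether the 4 libraries of a group came from 4 mice, so p-values measure the spread between libraries.

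Totals ran from 2906411 to 10166959 counts per library, and 3 counts, taken as the floor, corresponded to 0.25 to 1.15 CPM (counts scaled to the same library size). The deleted genes matched the labels in females, where Cyp2b9 was 107 to 611 CPM in WT and 0.357 to 1.92 CPM in Cyp2b-null livers. In males Cyp2b9 separated the genotypes on CDAHFD (13.8 to 69.0 CPM against 0.41 to 0.625 CPM), and on ND Cyp2b10 did (6.07 to 14.7 CPM against 0.211 to 1.0 CPM). Of the cell type markers summed, those of hepatocytes were highest, with 6 genes summing to 98242 to 182105 CPM on ND and 48198 to 102721 CPM on CDAHFD. On CDAHFD 6 of 7 tested macrophage markers were called higher (adjusted p under 0.05) in each sex and genotype. Of all genes tested 13.9% and 16.9% were called higher in WT and Cyp2b-null females, and 18% and 20.3% in males. The sum over 8 such markers went from 359 to 611 CPM up to 997 to 1637 CPM in females. In males it went from 162 to 324 CPM up to 867 to 2223 CPM. The CDAHFD-fed Cyp2b-null female replicate 3 stood apart from its group, with a chi-square per degree of freedom of 21.2 to 27.0 against the other libraries, which had 3.17 to 8.27 among themselves, and without it 7 members were called for diet in Cyp2b-null females in place of 6. Larger values occurred in males. ND-fed WT male replicate 2 had 48.1 and 56.5 against replicates 1 and 3, and CDAHFD-fed Cyp2b-null male replicates 3 and 4 had 59.5 between them. In whole liver, fewer cells of a type and less RNA per cell cannot be told apart.

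Hepatocytes load triglyceride onto apolipoprotein B in the endoplasmic reticulum and secrete it as very low density lipoprotein (VLDL). In the circulation, lipoprotein lipase and hepatic lipase release the fatty acids, under the control of angiopoietin-like proteins, while lecithin-cholesterol acyltransferase and phospholipid transfer protein remodel high density lipoprotein (HDL). Remnants and free fatty acids return to cells through receptors, and choline deficiency limits the phosphatidylcholine that VLDL needs for its surface.

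The sequence before the transcription start is shown for the member that rose on CDAHFD, Cd36, and for 3 that fell in at least 1 sex, Lipc, Vldlr and Angptl8. The windows are 250 bases from RefSeq on GRCm38.p6, 5′ to 3′ on the gene's own strand, exons named beside them are those of GENCODE vM21, and RefSeq windows were matched for 7 of the 9 members. Capitals mark AGGTCA, a hexamer bound by nuclear receptors, and the CCAAT box, each searched on both strands, so that TGACCT and ATTGG are the same motifs read from the other strand.
Cd36 (chr5:17835897-17836146, minus strand, inside the gene's span but in no exon): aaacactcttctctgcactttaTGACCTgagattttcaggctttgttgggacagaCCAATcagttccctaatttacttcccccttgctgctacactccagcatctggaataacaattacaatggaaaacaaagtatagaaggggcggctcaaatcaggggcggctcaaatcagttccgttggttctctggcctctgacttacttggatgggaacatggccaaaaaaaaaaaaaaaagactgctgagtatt
Lipc (chr9:70934809-70935058, minus strand, before its downstream start, in no exon): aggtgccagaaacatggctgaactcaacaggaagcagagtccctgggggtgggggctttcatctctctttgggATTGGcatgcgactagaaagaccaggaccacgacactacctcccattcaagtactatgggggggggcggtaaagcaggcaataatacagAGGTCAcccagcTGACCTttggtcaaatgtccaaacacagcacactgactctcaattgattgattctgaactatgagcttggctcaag
Vldlr (chr19:27216234-27216483, plus strand, its last bases inside the RefSeq gene): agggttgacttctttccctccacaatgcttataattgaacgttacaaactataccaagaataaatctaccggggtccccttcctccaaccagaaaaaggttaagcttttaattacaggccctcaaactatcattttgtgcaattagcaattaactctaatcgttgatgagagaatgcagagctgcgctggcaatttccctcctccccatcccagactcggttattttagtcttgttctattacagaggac
Angptl8 (chr9:21835260-21835509, plus strand, in an intron of Dock6): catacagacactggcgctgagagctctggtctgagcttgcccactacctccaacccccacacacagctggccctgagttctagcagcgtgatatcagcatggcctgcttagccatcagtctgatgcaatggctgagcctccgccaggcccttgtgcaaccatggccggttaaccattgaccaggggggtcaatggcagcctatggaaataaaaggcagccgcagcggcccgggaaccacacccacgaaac
AGGTCA was found once in the Cd36 window and at 2 places in the Lipc window, and 14% of all 32851 RefSeq windows of this length held it. CCAAT was found once in each of the same windows, against 33.8% of all windows. Neither run of letters is in the Vldlr or the Angptl8 window. The 7 members matched had 9 windows, of which 2 held AGGTCA, those of Cd36 and Lipc, and 6 held CCAAT. By gene 5 of 7 had CCAAT in at least 1 of their windows, Vldlr in another window than the one shown.

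Cd36 rose on CDAHFD in both sexes and both genotypes, and between 4 and 6 of the 8 tested members were called lower in each of the 4 comparisons. In CDAHFD-fed WT females 7 of the 8 tested members were called at an adjusted p under 0.05 (1 higher, 6 lower), where 24.1% of all genes tested were called, 13.9% higher and 10.2% lower. In Cyp2b-null females 6 were called (1 higher, 5 lower, beside 30.8% of all genes, 16.9% higher and 13.9% lower), in WT males 5 (1 higher, 4 lower, beside 33%, 18% higher and 15% lower) and in Cyp2b-null males 7 (1 higher, 6 lower, beside 37.4%, 20.3% higher and 17.1% lower). The libraries of the 2 diets did not overlap for 6, 5, 5 and 6 members in the same order, beside 26%, 30.8%, 28.4% and 36.8% of all genes. Mttp, Lipc and Cd36 were called in all 4 of these comparisons. The median log2 change of the tested members was -0.69 in WT females, -0.49 in Cyp2b-null females, -0.70 in WT males and -0.83 in Cyp2b-null males, beside medians over all genes between -0.02 and 0.03. Scaled by library size only, which moved the median of all genes to between 0.28 and 0.37, the calls of Tm6sf2, Lcat and Pltp in WT females, of Lipc and Lcat in Cyp2b-null females, of Angptl8 and Pltp in WT males and of Tm6sf2 and Lcat in Cyp2b-null males were lost. Tests are edgeR quasi-likelihood tests with Benjamini-Hochberg adjustment over all genes tested in that sex, and log2 changes are of CDAHFD over ND.

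**Figure D1:**
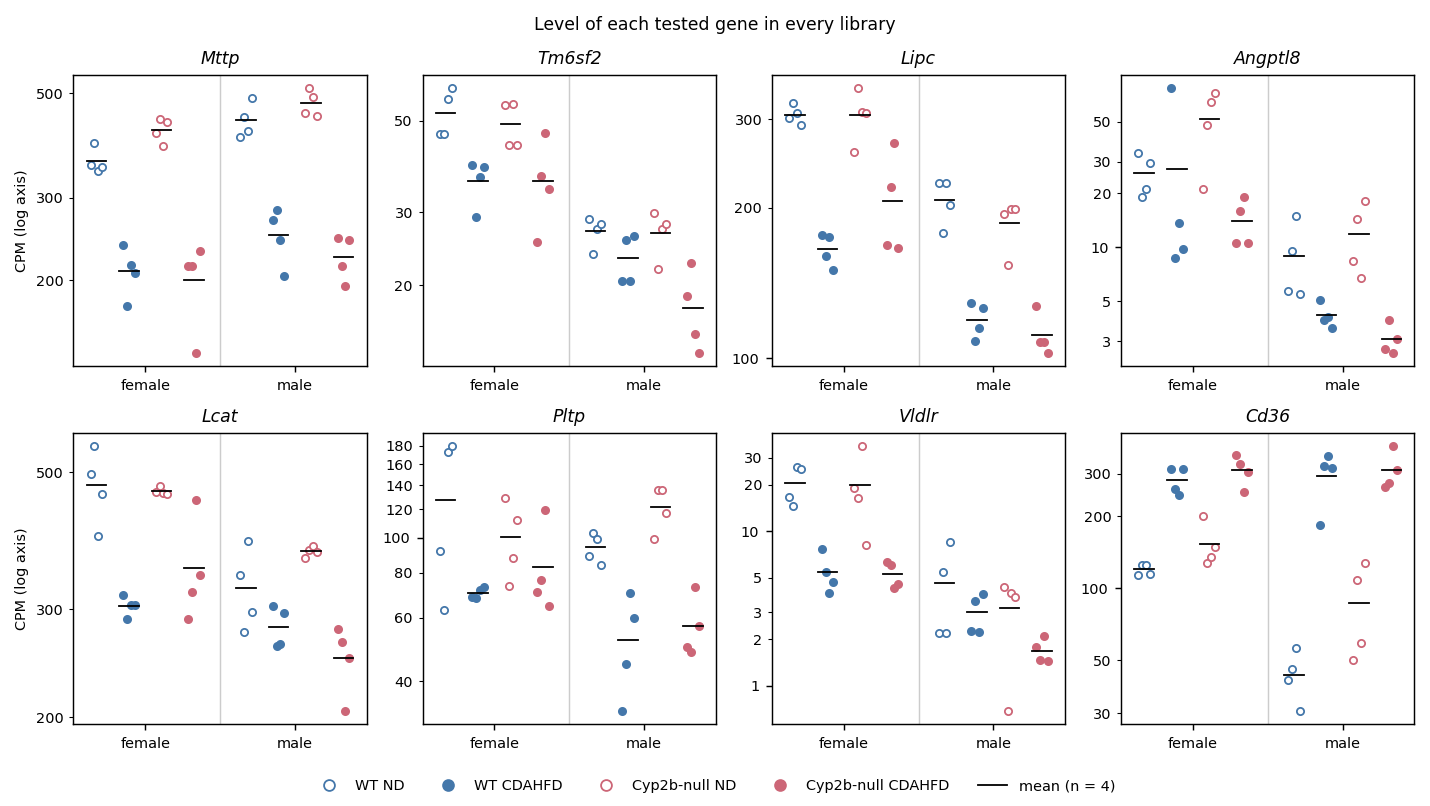
CPM (log axis) of the 8 tested genes in each of the 32 libraries, with 4 libraries per group, open circles for ND, filled circles for CDAHFD, blue for WT, red for Cyp2b-null and a bar at the group mean. Cd36 is the gene whose CDAHFD libraries all lie above the ND libraries of the same sex, and 1 CDAHFD-fed WT female library lies far above the others for Angptl8 at 77.2 CPM.

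**Figure D2:**
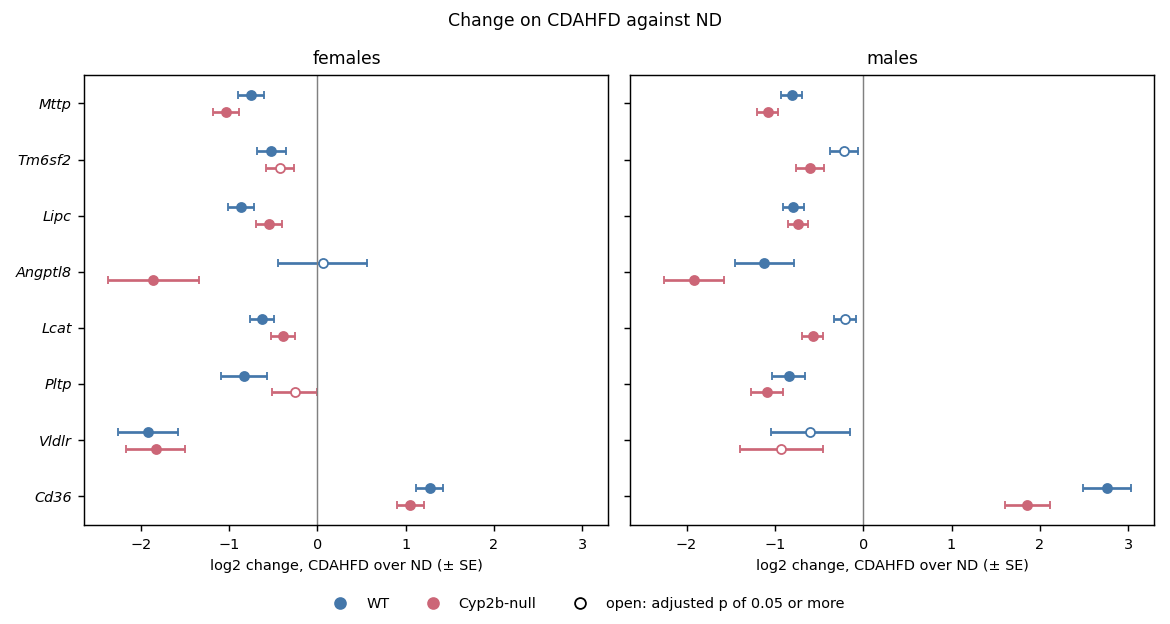
log2 change of CDAHFD over ND with its SE for the 8 tested genes in females and males, blue for WT and red for Cyp2b-null, filled where the adjusted p was under 0.05. Cd36 is to the right of 0 in all 4 comparisons, by 1.05 to 2.76, and Mttp and Lipc are to the left in all 4.

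Of the assembly genes, Mttp (GRCm38.p6 chr3:138089855-138143418), the microsomal triglyceride transfer protein that lipidates apolipoprotein B, fell in every comparison. In WT females Mttp was 351, 392, 342 and 348 CPM on ND and 238, 176, 216 and 208 CPM on CDAHFD. Cyp2b-null females had 412, 440, 386 and 434 CPM on ND against 214, 215, 140 and 232 CPM on CDAHFD. The diets did not overlap in either genotype, and the lowest value of all 32 belonged to 1 CDAHFD-fed Cyp2b-null female, replicate 3. WT males had 403, 445, 416 and 487 CPM on ND and 269, 282, 244 and 204 CPM on CDAHFD. In Cyp2b-null males the values were 453, 513, 491 and 447 CPM on ND and 246, 214, 194 and 244 CPM on CDAHFD. Again no CDAHFD-fed male reached the lowest ND-fed male. The log2 change was -0.75 (SE 0.15, adjusted p = 0.000622) in WT females and -1.03 (SE 0.15, adjusted p = 2.21e-05) in Cyp2b-null females, and -0.81 (SE 0.12, adjusted p = 2.27e-05) and -1.08 (SE 0.12, adjusted p = 4.89e-07) in WT and Cyp2b-null males. These correspond to changes of -40.5%, -51.1%, -42.9% and -52.8%. The larger fall in Cyp2b-null mice was not a called difference, since the diet by genotype interaction was -0.28 (SE 0.20, adjusted p = 0.787) in females and -0.27 (SE 0.17, adjusted p = 0.862) in males.

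Tm6sf2 (chr8:70072924-70080066), an endoplasmic reticulum membrane protein needed to lipidate VLDL, was lower on CDAHFD by a smaller amount. In WT females it was 46.5, 46.3, 56.2 and 60.0 CPM on ND and 39.0, 29.3, 36.5 and 38.6 CPM on CDAHFD, with no overlap (log2 change -0.52, SE 0.16, adjusted p = 0.0237). Cyp2b-null females had 54.4, 43.6, 54.9 and 43.7 CPM on ND and 25.4, 36.8, 46.8 and 34.1 CPM on CDAHFD, a log2 change of -0.42 that missed the threshold (SE 0.16, adjusted p = 0.054). Replicate 3 of the CDAHFD-fed Cyp2b-null females lay among the ND values, and without it the change was -0.56 (adjusted p = 0.00964). In WT males the ranges overlapped, at 28.9, 23.8, 27.4 and 28.2 CPM on ND and 20.5, 25.8, 20.5 and 26.3 CPM on CDAHFD (log2 change -0.22, SE 0.16, adjusted p = 0.301, and 0.17 when scaled by library size only). Cyp2b-null males had 29.9, 21.9, 27.4 and 28.1 CPM on ND and 18.8, 22.7, 15.2 and 13.7 CPM on CDAHFD, and the fall was called (log2 change -0.60, SE 0.16, adjusted p = 0.00469) although 1 library of each diet overlapped. The call in WT females was lost without WT ND female replicate 3, WT ND female replicate 4 or WT CDAHFD female replicate 2, where the log2 change was -0.49, -0.44 and -0.44.

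Per kilobase of exon (union of GENCODE vM21 exons), the only scale on which genes are compared here, Lcat led the members in ND-fed WT livers with 355 ± 49.4 CPM per kb in females and 242 ± 36.8 in males (SD, n = 4). Lipc followed with 143 ± 6.22 and 96.4 ± 10.2, then Mttp with 57.8 ± 3.71 and 70.6 ± 6.01. Pltp, Cd36, Angptl8 and Tm6sf2 lay between 27.5 and 49.6 CPM per kb in females and between 10.3 and 36.7 in males. Vldlr was the lowest of the tested members, at 2.05 ± 0.587 and 0.457 ± 0.302.

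Among the genes of lipolysis, Lipc (chr9:70798128-70952221), which encodes hepatic lipase, fell in all 4 diet comparisons. In WT females Lipc was 302, 324, 309 and 292 CPM on ND and 176, 160, 174 and 150 CPM on CDAHFD. Cyp2b-null females had 258, 347, 311 and 309 CPM on ND and 169, 220, 269 and 166 CPM on CDAHFD. Only in the Cyp2b-null females did the diets overlap, through replicate 3 on CDAHFD at 269 CPM. WT males had 224, 178, 224 and 203 CPM on ND and 129, 108, 115 and 126 CPM on CDAHFD, and Cyp2b-null males 194, 153, 199 and 199 CPM against 127, 108, 108 and 103 CPM. The ranges of the diets were separate in males of either genotype. The log2 change was -0.87 (SE 0.15, adjusted p = 0.00014) and -0.55 (SE 0.14, adjusted p = 0.00661) in WT and Cyp2b-null females, and -0.79 (SE 0.12, adjusted p = 2.34e-05) and -0.74 (SE 0.12, adjusted p = 4.14e-05) in WT and Cyp2b-null males. Without Cyp2b-null CDAHFD female replicate 3 the change in Cyp2b-null females was -0.70 (adjusted p = 0.000432).

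Angptl8 (chr9:21835510-21837347), a secreted inhibitor of lipoprotein lipase made by liver and adipose tissue in the fed state, varied widely between libraries of a group. In WT females it was 33.6, 19.1, 21.2 and 29.6 CPM on ND and 77.2, 8.74, 13.8 and 9.84 CPM on CDAHFD. A single CDAHFD-fed library, replicate 1, stood above every ND-fed WT female and the other 3 stood below all of them, so the log2 change was 0.06 (SE 0.51, adjusted p = 0.949). Without that library it was -1.26 (adjusted p = 0.00974). Cyp2b-null females had 21.2, 48.2, 64.1 and 72.6 CPM on ND and 10.6, 15.9, 19.1 and 10.6 CPM on CDAHFD, with no overlap (log2 change -1.86, SE 0.51, adjusted p = 0.00892). WT males had 5.70, 9.60, 15 and 5.47 CPM on ND and 5.12, 3.96, 4.09 and 3.55 CPM on CDAHFD (log2 change -1.12, SE 0.34, adjusted p = 0.0138). The diets were separate by a narrow margin there, and the call was lost without WT ND male replicate 3 (log2 change -0.74). In Cyp2b-null males Angptl8 was 8.45, 14.4, 6.74 and 18.2 CPM on ND and 2.74, 3.96, 2.58 and 3.08 CPM on CDAHFD (log2 change -1.92, SE 0.34, adjusted p = 0.000122). Angptl8 lies within an intron of Dock6 on the other strand and shares no exon base with it, whether the counting used strand is not given in the sources used here, and Dock6 was 8.75 CPM in the library with 77.2 CPM of Angptl8 and 7.19 to 12.7 CPM in the other CDAHFD-fed WT females.

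Angptl4 (chr17:33774900-33781575), an inhibitor of lipoprotein lipase induced by fasting and fatty acids, was listed at 0 or 1 count in every library, 9 counts in all in 9 of the 32 libraries. No level, fold or test is given for it. Another gene 2 rows further on in the tables, Rps28, which encodes a ribosomal protein that every cell makes, had 0 to 6 counts, whereas Rab11b and Ndufa7 near it had 63 to 231 and 65 to 262 counts. Kank3, listed between Angptl4 and Rps28, had 0 to 11 counts. The cause of the low Angptl4 counts was not tested, and they are not read here as absence of expression.

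Of the HDL remodelling genes, Lcat was called lower on CDAHFD in all but WT males and Pltp in all but Cyp2b-null females. Lcat (chr8:105939551-105943402), which esterifies HDL cholesterol, was 498, 552, 394 and 461 CPM in WT females on ND and 316, 289, 304 and 305 CPM on CDAHFD. Cyp2b-null females had 465, 474, 464 and 462 CPM on ND, within a narrow range, and 289, 320, 450 and 341 CPM on CDAHFD. Neither genotype overlapped, and replicate 3 on CDAHFD at 450 CPM came nearest to the ND values. WT males overlapped, with 341, 276, 387 and 296 CPM on ND and 304, 262, 263 and 296 CPM on CDAHFD, and Cyp2b-null males did not, with 363, 374, 380 and 371 CPM against 279, 265, 205 and 250 CPM. The log2 change was -0.62 (SE 0.14, adjusted p = 0.00164) in WT females, -0.39 (SE 0.13, adjusted p = 0.0323) in Cyp2b-null females, -0.21 (SE 0.12, adjusted p = 0.200, and 0.18 when scaled by library size only) in WT males and -0.57 (SE 0.12, adjusted p = 0.000768) in Cyp2b-null males. The call in Cyp2b-null females was lost when only the groups compared were fitted, and in 7 of 16 fits that left out 1 library, namely without any of the ND-fed Cyp2b-null females or without CDAHFD-fed replicates 1, 2 or 4 of that genotype, and without replicate 3 the change was -0.53 (adjusted p = 0.00216). A difference of the diet effect between males and females was not called in WT (0.44, SE 0.18, adjusted p = 0.335).

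Pltp (chr2:164839518-164857708), which moves phospholipid from triglyceride-rich particles to HDL, fell in males of both genotypes and in WT females. WT males had 89.2, 103, 99.3 and 84.2 CPM on ND and 33.0, 44.5, 70.3 and 60.0 CPM on CDAHFD, and Cyp2b-null males 99.3, 136, 136 and 117 CPM against 49.7, 48.3, 73.1 and 57.0 CPM. The diets were separate in both, with log2 changes of -0.85 (SE 0.18, adjusted p = 0.00128) and -1.09 (SE 0.18, adjusted p = 7.8e-05). In WT females Pltp was 92.0, 63.1, 173 and 180 CPM on ND and 68.5, 68.2, 71.8 and 72.9 CPM on CDAHFD, an overlap through ND replicate 2 (log2 change -0.83, SE 0.26, adjusted p = 0.022). Without WT ND female replicate 3 or WT ND female replicate 4, the highest libraries, or WT CDAHFD female replicate 2, this call was lost. It was also lost under a 2-step rule with edgeR p-values in both steps. The log2 change over all fits that left out 1 library ran from -1.05 to -0.61. Cyp2b-null females had 129, 73.4, 87.6 and 112 CPM on ND and 70.7, 76.1, 119 and 64.8 CPM on CDAHFD (log2 change -0.26, SE 0.26, adjusted p = 0.475), and without replicate 3 on CDAHFD the change was -0.48 (adjusted p = 0.181). The diet effect on Pltp was not called as different between the sexes, in WT (0.01, males minus females, SE 0.34, adjusted p = 0.999) or in Cyp2b-null mice (-0.81, SE 0.34, adjusted p = 0.179).

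Of the uptake genes, Vldlr (chr19:27216480-27254231), the receptor for VLDL and its remnants, fell in females and was low in males. WT females had 16.7, 14.5, 26.3 and 25.2 CPM on ND and 7.66, 5.43, 3.99 and 4.69 CPM on CDAHFD. Cyp2b-null females had 19.1, 16.5, 35.7 and 8.20 CPM on ND and 6.29, 6.03, 4.28 and 4.58 CPM on CDAHFD. All CDAHFD-fed females were below all ND-fed females of the same genotype, and the log2 changes of -1.92 (SE 0.34, adjusted p = 0.000239) and -1.83 (SE 0.34, adjusted p = 0.000338) correspond to changes of -73.5% and -71.9%. In WT males Vldlr was 2.21, 5.46, 2.20 and 8.53 CPM on ND and 2.28, 3.54, 2.22 and 3.9 CPM on CDAHFD, from 12 to 39 counts (log2 change -0.60, SE 0.45, adjusted p = 0.323). Cyp2b-null males had 4.34, 0.683, 4.00 and 3.77 CPM on ND and 1.77, 1.46, 2.08 and 1.44 CPM on CDAHFD (log2 change -0.93, SE 0.47, adjusted p = 0.129). The ND library at 0.683 CPM, replicate 2, held 3 counts, and without it the change was -1.24 (adjusted p = 0.0302). The diet effect was not called as different between the sexes, in WT (1.34, males minus females, SE 0.58, adjusted p = 0.379) or in Cyp2b-null mice (0.93, SE 0.60, adjusted p = 0.416).

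Cd36 (chr5:17781690-17888959), a scavenger receptor and fatty acid translocase made by hepatocytes, macrophages and endothelium, was the 1 member that rose on CDAHFD. In WT females Cd36 was 114, 125, 125 and 115 CPM on ND and 314, 261, 246 and 314 CPM on CDAHFD. Cyp2b-null females had 200, 127, 135 and 149 CPM on ND and 358, 329, 252 and 305 CPM on CDAHFD. Every CDAHFD-fed female was above every ND-fed female. WT males had 41.2, 46.0, 56.0 and 30.6 CPM on ND and 184, 323, 356 and 316 CPM on CDAHFD. In Cyp2b-null males Cd36 was 50.1, 109, 58.8 and 128 CPM on ND and 266, 274, 393 and 310 CPM on CDAHFD. The males were separated by diet in the same way, from a lower and wider ND range. The log2 change was 1.27 (SE 0.15, adjusted p = 3.28e-06) in WT females, 1.05 (SE 0.15, adjusted p = 2.39e-05) in Cyp2b-null females, 2.76 (SE 0.27, adjusted p = 1.18e-07) in WT males and 1.86 (SE 0.26, adjusted p = 8.24e-06) in Cyp2b-null males, or 2.41-, 2.08-, 6.77- and 3.63-fold.

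The rise of Cd36 was larger in males than in females of the WT genotype. In the fit to all 8 groups the difference of the diet effects, males minus females, was 1.51 (SE 0.32, adjusted p = 0.0103), 1 of 8 tested members called where 0.97% of 14020 genes were. It was called in each of the 8 alternatives and the 32 fits that left out 1 library. In Cyp2b-null mice the difference was 0.83 (SE 0.31, adjusted p = 0.131), where 0 members and 3.4% of all genes were called. The group means on CDAHFD were 284 ± 35.6 CPM in WT females and 295 ± 75.7 CPM in WT males, and on ND 120 ± 6.11 and 43.4 ± 10.5 CPM (SD, n = 4). Each sex stands in a table of its own, so a difference in level between the sexes cannot be told apart from a difference between the tables. All 7 tested macrophage markers had a higher diet effect in males than in females in both genotypes (median difference 1.20 in WT and 1.53 in Cyp2b-null mice). It was called for 2 of 7 in WT and 4 of 7 in Cyp2b-null mice. All 6 endothelial markers also had a higher diet effect in males (medians 0.29 and 1.08), called for 0 and 3 of 6. Hepatocyte markers had it for 5 and 3 of 6 (medians 0.16 and -0.09), with 0 called. The part of macrophages, endothelium or hepatocytes in the Cd36 result was not tested.

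**Figure D3:**
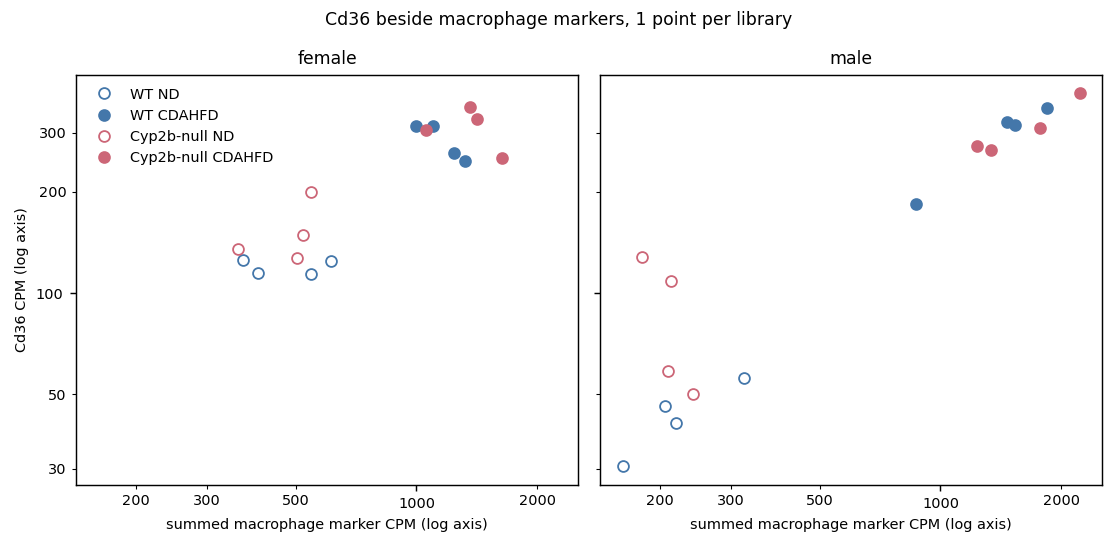
Cd36 CPM against the summed CPM of 8 macrophage markers in each library (both axes log), females left and males right, open circles for ND, filled for CDAHFD, blue for WT and red for Cyp2b-null. In both sexes the CDAHFD libraries are higher on both axes, and the ND-fed male marker sums of 162 to 324 CPM lie below those of ND-fed females at 359 to 611 CPM.

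Beside the falling members, all 6 hepatocyte markers were also called lower in 3 of the 4 diet comparisons and 5 of 6 in Cyp2b-null males. Of these markers 0 had a log2 change above 0 in any of the 4. Their median log2 change was -0.97 in WT females, -0.90 in Cyp2b-null females, -0.75 in WT males and -0.76 in Cyp2b-null males. Of all genes 10.2%, 13.9%, 15% and 17.1% were called lower in the same order. The part of hepatocyte content in these falls was not tested. Endothelial markers moved less, with median log2 changes of -0.38, -0.49, -0.09 and 0.32 over the same comparisons. Of these 6 markers 2 and 3 were called lower and 0 higher in WT and Cyp2b-null females. In WT males 1 was called higher and 1 lower, and in Cyp2b-null males 3 higher and 0 lower. Of 6 stellate cell and fibroblast markers 3, 4, 3 and 5 were called higher, beside 13.9%, 16.9%, 18% and 20.3% of all genes. All 6 had log2 changes above 0 in each comparison, with medians of 0.56, 0.71, 0.89 and 1.24, and their part was not tested either.

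By mean CPM the groups sorted by diet before genotype in every tested member except Angptl8 in females. There the order was Cyp2b-null ND (51.5 CPM), WT CDAHFD (27.4 CPM), WT ND (25.9 CPM) and Cyp2b-null CDAHFD (14.0 CPM). Ordered by mean CPM within a sex, Mttp ran from Cyp2b-null ND through WT ND and WT CDAHFD to Cyp2b-null CDAHFD in females and in males alike, and in both sexes the step from ND to CDAHFD was the one without overlap. The highest 2 groups of Lipc, Lcat, Pltp, Vldlr and Tm6sf2 were the ND groups in both sexes, and those of Cd36 the CDAHFD groups. In all of these genes the ranges of the 2 highest groups overlapped.

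Genotype changed none of the members by the test used. On ND 0 of 8 members were called in females (background 0.0756%) and 0 of 8 in males (background 0.0371%), and on CDAHFD 0 in females (background 0.0227%) and 0 in males (background 0.0297%). At an unadjusted p under 0.05, which 5.75%, 8.26%, 5.83% and 3.62% of all genes met in that order, Cd36 on ND in both sexes, Lipc on CDAHFD in females and Tm6sf2 on CDAHFD in males passed. DESeq2, as a second tool, called Cd36 on ND in males, where it called 0.453% of all genes, and no other member in these 4 comparisons. For 2 members the genotypes did not overlap, Cd36 on ND in females, where 3.55% of all genes were separate, and Vldlr on CDAHFD in males, where 2.54% were. For 0 members were they separate on CDAHFD in females (2.83% of all genes) or on ND in males (3.86%).

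The largest genotype values were those of Cd36 on ND in males and of Angptl8 in females. ND-fed Cyp2b-null males had a mean Cd36 of 86.4 ± 37.8 CPM against 43.4 ± 10.5 CPM in WT (SD, n = 4), and 3 of the 4 Cyp2b-null libraries were above all WT libraries while the fourth lay among them. The log2 change was 0.98 (SE 0.26, unadjusted p = 0.00127, adjusted p = 0.198), and over the alternatives the adjusted p ran from 6.91e-08 to 0.387. The sum of 5 adipocyte markers was 3.22, 33.7, 6.74 and 15.95 CPM in the ND-fed Cyp2b-null males with 50.1, 109, 58.8 and 128 CPM of Cd36. It was thus higher in the libraries at 109 and 128 CPM, though not highest where Cd36 was highest. In ND-fed WT males the sum was at most 3.31 CPM. Only Cfd had enough reads to be tested, in males, and it was not called for genotype on ND (log2 change 2.85). It was called lower on CDAHFD in WT and Cyp2b-null males (-3.15 and -5.89). The sum was almost all Cfd (28 to 145 counts), while Lep was at 0 and Adipoq, Plin1 and Retn at 2 counts or fewer in all libraries, and the part of adipose tissue in the Cd36 value was not tested. Without Cyp2b-null ND male replicate 2 or 4 the log2 change was 0.85 and 0.72. In females on ND the mean of Cd36 was 153 ± 32.5 CPM in Cyp2b-null livers against 120 ± 6.11 CPM (log2 change 0.35, SE 0.15, adjusted p = 0.835).

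Angptl8 was 51.5 ± 22.6 CPM in ND-fed Cyp2b-null and 25.9 ± 6.86 CPM in ND-fed WT females (SD, n = 4), a log2 difference of 0.98 (SE 0.50, adjusted p = 0.877) with overlapping libraries. On CDAHFD it was -0.94 (SE 0.52, adjusted p = 0.826), and without WT CDAHFD female replicate 1 it was 0.38, a change of sign. Lipc on CDAHFD had a mean of 206 ± 49.1 CPM in Cyp2b-null females against 165 ± 12.4 CPM in WT (log2 0.32, SE 0.14, adjusted p = 0.826), and 0.17 without Cyp2b-null CDAHFD female replicate 3. In males on CDAHFD Tm6sf2 had a mean of 17.6 ± 4.00 CPM against 23.3 ± 3.22 CPM in WT (log2 -0.39, SE 0.16, adjusted p = 0.9999). Vldlr on CDAHFD was 1.69 ± 0.305 CPM and 2.99 ± 0.864 CPM in the same males (log2 -0.77, SE 0.47, adjusted p = 0.9999), from 7 to 25 counts per library.

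**Figure D4:**
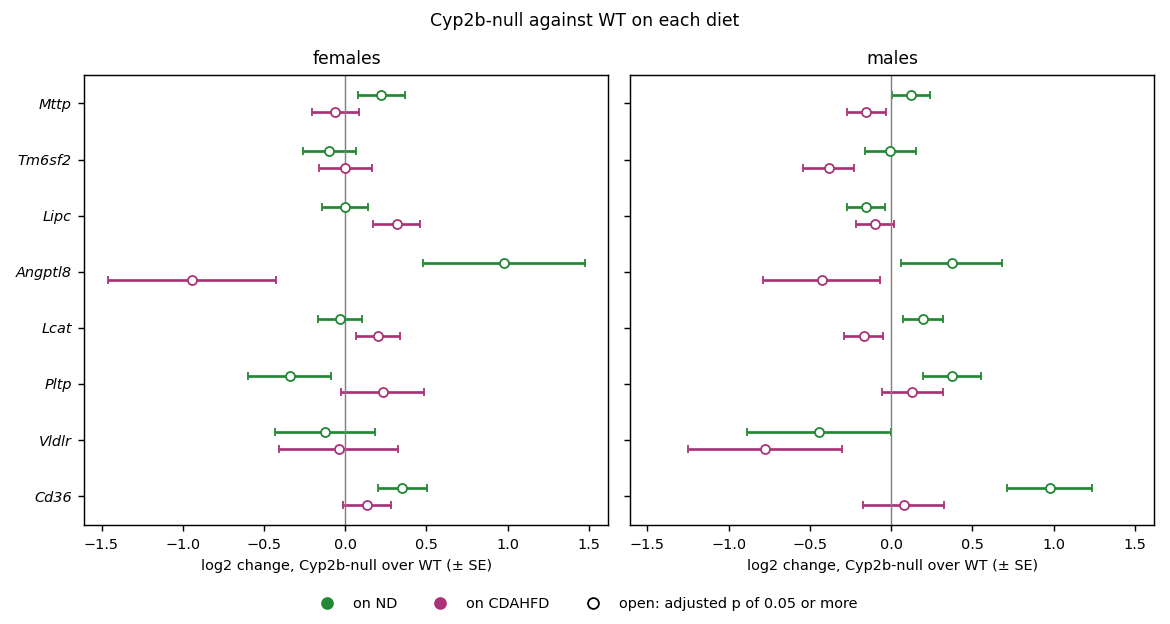
log2 change of Cyp2b-null over WT with its SE for the 8 tested genes in females and males, green on ND and purple on CDAHFD. All circles are open, since 0 of 8 passed an adjusted p under 0.05 in any of the 4 comparisons, and the widest bars are those of Angptl8 in females (SE 0.50 and 0.52).

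The diet by genotype interaction was not called for any member in females (background 0%) or males (background 0.00743%). Its largest values were -1.92 for Angptl8 in females (SE 0.72, unadjusted p = 0.0142, adjusted p = 0.760) and -0.90 for Cd36 in males (SE 0.36, unadjusted p = 0.0209, adjusted p = 0.699). Over the fits that left out 1 library the Angptl8 value ran from -2.21 to -0.60. When all 4 groups of a sex were tested together 7 of 8 members were called in females, all but Pltp (adjusted p = 0.0667, background 31.7%), and 7 in males, all but Vldlr (adjusted p = 0.109, background 39.7%). Sex differences of the genotype effect gave 0 called members on either diet (background 0.00713% on each).

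Other genes of the same pathway, 42 in 4 lists of which 40 were tested, changed with diet in both directions. They counted 4 higher and 10 lower in WT females, 5 and 12 in Cyp2b-null females, 5 and 14 in WT males and 8 and 14 in Cyp2b-null males, where 24.1%, 30.8%, 33% and 37.4% of all genes were called, and 0 by genotype on either diet in either sex. Lrp8 and Olr1 had too few reads. The median log2 change of the tested list genes was -0.14, -0.20, -0.18 and -0.24 in the same order.

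The assembly list held 10 genes, with 1 higher and 1 lower called in WT females, 1 and 4 in Cyp2b-null females, and 0 higher with 4 and 3 lower in WT and Cyp2b-null males, beside the same shares of all genes called (24.1%, 30.8%, 33% and 37.4%). Sar1b, a GTPase of the vesicles that carry large lipoproteins out of the endoplasmic reticulum, fell by 0.77, 0.69, 0.66 and 1.10 on the log2 scale in WT and Cyp2b-null females and WT and Cyp2b-null males (SE 0.13 to 0.14). P4hb, the partner subunit of Mttp, was higher in females (log2 change 0.41, SE 0.12, adjusted p = 0.0172, and 0.47, SE 0.12, adjusted p = 0.00671) and was 0.22 and 0.25 in males without a call. Apob, the structural protein of VLDL, was called in Cyp2b-null females alone (-0.48, SE 0.16, adjusted p = 0.0238), with values of -0.20 to -0.31 in the others.

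Of 11 lipase genes, Lpl, which encodes lipoprotein lipase, the enzyme that Angptl8 and Angptl4 inhibit, rose by 3.28 and 3.44 in WT and Cyp2b-null females and by 3.92 and 3.89 in males on the log2 scale (SE 0.20 to 0.28). It was the 1 gene of this list called higher in each comparison. Apoc3, an apolipoprotein that slows lipolysis and uptake, was called lower in all but the Cyp2b-null females (log2 change -0.37, adjusted p = 0.134). In total 3, 2, 3 and 6 genes of this list were called lower, beside 10.2%, 13.9%, 15% and 17.1% of all genes.

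In the HDL list of 7 genes, Abcg1, a cholesterol exporter abundant in macrophages, rose by 1.45 to 2.51 and Scarb1, the HDL receptor, by 0.38 to 0.57 where called, in all but WT females (0.26, adjusted p = 0.115). Pon1 and Apoa2, proteins carried on HDL, were lower in all 4 comparisons, with log2 changes of -0.62 to -1.05 and -0.46 to -1.30. Abca1 was called lower in Cyp2b-null females alone (-0.70, SE 0.17, adjusted p = 0.00418).

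Of the uptake list, Msr1, a macrophage scavenger receptor, rose in all 4 comparisons, by 0.77 (SE 0.18) and 0.61 (SE 0.18) in WT and Cyp2b-null females and by 1.46 (SE 0.21) and 1.63 (SE 0.21) in males. In total 1, 1, 2 and 5 of the 12 tested genes were called higher and 3, 3, 4 and 3 lower, beside 24.1%, 30.8%, 33% and 37.4% of all genes called in either direction.

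**Figure D5:**
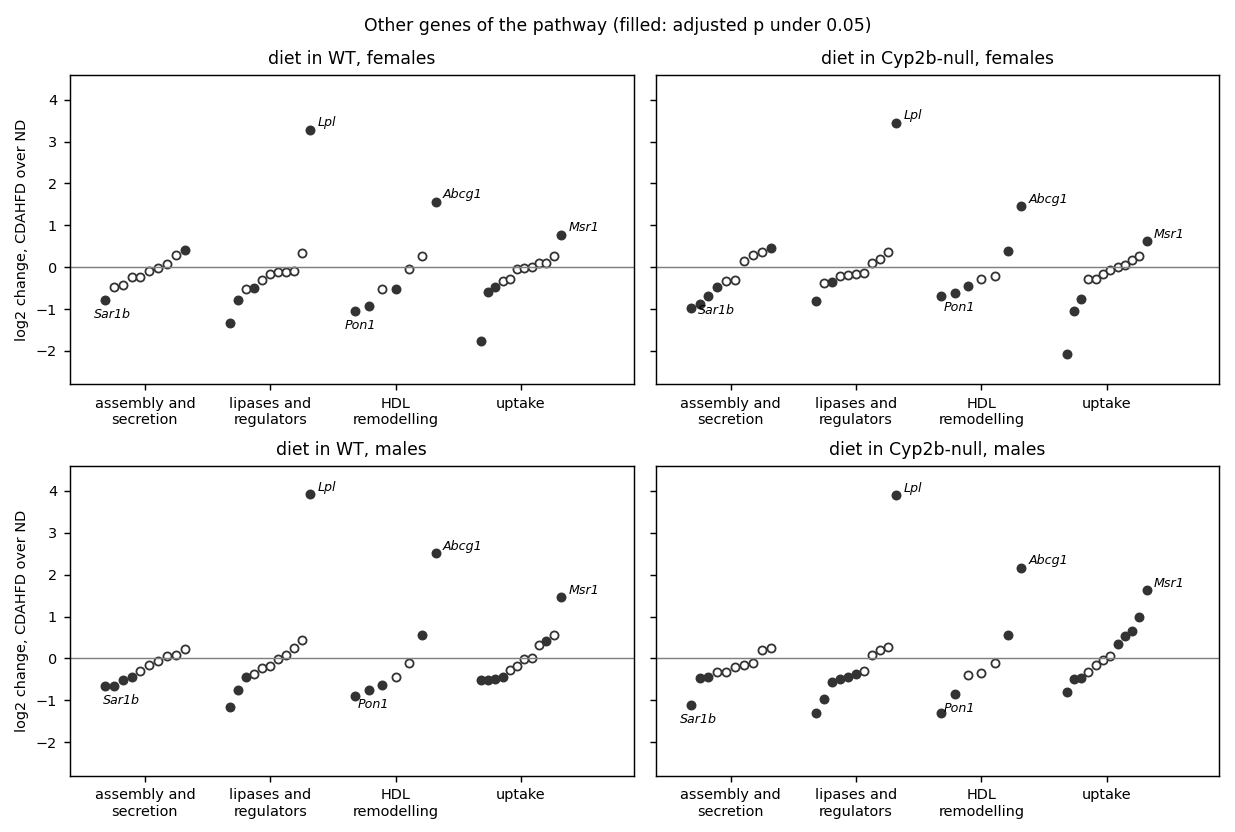
log2 change of CDAHFD over ND for the 40 tested genes of the 4 pathway lists, 1 panel per sex and genotype, each circle a gene and filled where the adjusted p was under 0.05. Lpl is the highest point of every panel, at 3.28 to 3.92, and genes are ordered by value within each list.

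Genes whose log2 CPM followed a member most closely over the 16 libraries of each sex, by the lower of the 2 sexes' Pearson r among 12970 genes, were Fbxo3, Abcd3 and Lactb2 for Mttp (0.96 each) and Ces1c, Cyp27a1 and Rdh7 for Lipc (0.95, 0.94 and 0.94). For Lcat they were Cpn1, Apoa2 and Tmbim6 (0.91, 0.89 and 0.89), and for Cd36 Osbpl3, Clec7a and Cdc42 (0.95, 0.94 and 0.94). Angptl8, Pltp, Tm6sf2 and Vldlr had no gene above 0.79, their nearest being Lactb, Gna14, Cops3 and Slc25a44 (0.79, 0.79, 0.78 and 0.77). The 16 points share 4 diet and genotype groups, so these values describe the likeness of patterns across groups.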

How the data were processed

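Liver RNA of 32 libraries was sequenced. Per the labels and the study's methods, the authors used Trimmomatic for trimming, GSNAP for alignment (GRCm38.p6) and Subread for counting, and the deposited values are raw counts in 1 table per sex. Versions and settings for strand or multiply mapped reads are not given in the sources used here.

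The filterByExpr function (count of 10, total of 15) kept 13226 genes in females and 13460 in males. TMM-scaled counts were tested with edgeR 4.0.16 (quasi-likelihood, R 4.3.3), with the 4 groups of a sex in 1 fit, or all 8 groups and 14020 genes for differences between sexes. The Benjamini-Hochberg adjustment covered every tested gene, and calls are at adjusted p under 0.05. Printed CPM use the TMM factors of the joint 32-library fit, and tests those within a sex. The steps were tested on simulated data. Replicates of a group differed beyond counting noise (chi-square per degree of freedom 3.17 to 59.5). The floor of 3 counts takes no account of that spread, whereas each SE of a log2 change comes from the edgeR fit and includes it.

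All members are named. Other genes are named from the called genes of the pathway lists, marker lists or nearest correlations. The members and lists were chosen with earlier results of these data known. The alternatives were DESeq2 1.42.0, RLE factors, library size only, 2 other filters, fits of only the groups compared, the replicate number as a block, an adjusted p under 0.1, a 2-step rule and leaving out each library. The 2-step rule took an adjusted p under 0.05 over the 4 groups of a sex, then an unadjusted edgeR p under 0.05 for the comparison. The study's own second step was a Student's t-test on normalized counts, which was not run here. Some genes of the pathway lists are counted but not reported by name here.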

Additional observations from a re-analysis of the deposited data

Results flagged for a closer look

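In groups of 4 libraries, the gap of the highest or lowest library to its neighbor was compared with the range of the group. Of 64 groups of the tested members 3 stood out, and chance alone gives about 1 in 20 groups. Angptl8 was 77.2 CPM in CDAHFD-fed WT female replicate 1, above 8.74 to 13.8 CPM in the other libraries of that group. Lipc was 153 CPM in ND-fed Cyp2b-null male replicate 2, below 194 to 199 CPM in the others. Vldlr was 0.683 CPM in the same library, from 3 counts, below 3.77 to 4.34 CPM in the others.

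The diet effect on Cd36 differed between the sexes in WT mice by 1.51 on the log2 scale (males minus females, SE 0.32, edgeR adjusted p = 0.0103).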

How the results depend on the processing

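Of 132 counts of called members under the alternatives, 117 were within 1.5 times the count reported, as were all 320 counts from fits that left out 1 library. Both include comparisons with 0 called where 0 was reported, and 5 or 8 against 7 also passed. The counts therefore do not show whether single genes kept their calls. Lcat for diet in Cyp2b-null females, for instance, stayed called in 9 of 16 such fits. Scaling by library size only gave 4 called members for diet in WT females (7 as reported), 4 for any difference in females (7) and 3 for diet in WT males (5). It gave 4 for diet in Cyp2b-null females (6) and 5 in Cyp2b-null males (7), and turned the uncalled values of Tm6sf2 (0.17) and Lcat (0.18) in WT males above 0. Of all genes 33.3%, 38.5%, 42.3%, 35.4% and 44.4% were called under this scaling, in the order of the member counts. That scaling moved the median log2 diet change of all genes to 0.32 and 0.28 in WT and Cyp2b-null females and 0.37 and 0.36 in males. Without a low-count filter 1 member was called for genotype on ND in females (0.479% of all genes), against 0 reported. The same held on CDAHFD in females (0.271%) and on ND in males (0.66%). The interaction gave 1 in females (0.18% of all genes) and 1 in males (0.369%), also against 0 reported. The sex difference of the diet effect gave 2 in WT (1.7% of all genes, 1 reported) and 2 in Cyp2b-null mice (3.34%, 0 reported). The 2-step rule, with edgeR p-values in both steps and not the study's t-test, gave 1 in each of the 4 genotype comparisons. That rule called 3.29% and 2.62% of all genes on ND and CDAHFD in females, and 5.14% and 2.38% in males. DESeq2 gave 1 for genotype on ND in males (0.453% of all genes). Each of these member counts stands against 0 reported, and these settings called a larger share of all genes than the test used. The cause was not tested.

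Leaving out single libraries gave 5 to 8 called members for diet in WT females, 5 to 7 in Cyp2b-null females, 4 to 5 in WT males and 7 to 8 in Cyp2b-null males, 5 to 8 and 6 to 8 for any difference in females and males, 1 for the sex difference of the diet effect in WT, and 0 for the other comparisons. The share of all genes called was not counted in these fits. Angptl8 changed sign for diet in WT females (lowest -1.26) and for genotype on CDAHFD in females (-1.23 to 0.38). Depth limits Vldlr in males, with 3 to 39 counts.

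The labels state no pairing of libraries by replicate number. Only same-numbered libraries were correlated, without differently numbered ones beside them, so this check cannot exclude a pairing. The correlation of same-numbered libraries' deviations from their group means was -0.11 to 0.16 in females and -0.18 to 0.27 in males, above 0.1 in 2 and 3 of 24 pairs. With the number as a block the called members were 7, 7, 5 and 7 for diet in WT females, Cyp2b-null females, WT males and Cyp2b-null males, and 0 for genotype. Of all genes 23.4%, 30.1%, 32.5% and 36.6% were called for diet in that order, and 0.0227% to 0.0756% for genotype. Angptl8 for diet in WT females became -0.13 under the block.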
